A study of Homo sapiens with 18 samples.

Results

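The comparison set 3 libraries of a HAP1 line labelled as an RB1CC1 knockout (RB1CC1KO) against 3 libraries of a HAP1 line labelled as an ATG7 knockout (ATG7KO), all grown in full medium. These 6 libraries were picked by their titles and make up 6 of the 18 in the series. HAP1 is a near-haploid, adherent human line derived from a chronic myeloid leukaemia line. Both lines were kept in IMDM with 10% heat-inactivated serum, penicillin and streptomycin, without starvation, and polyadenylated RNA was sequenced as 75 bp single-end reads. The 3 parental libraries (WT, full medium) are given for reference, and 6 h of Earle's balanced salt solution (EBSS), which lacks amino acids and serum, gave 3 more libraries of each line. The replicates are independent biological ones by the extraction protocol, but each genotype is represented by 1 line, so that the effect of a knockout and any other difference between the lines cannot be told apart.

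RB1CC1, also called FIP200, is the scaffold of the ULK1 kinase complex that starts autophagosome formation. ATG7 acts later, as the activating enzyme for the ubiquitin-like proteins ATG12 and ATG8, which are then joined to ATG5 and to membrane lipid. Loss of either protein blocks canonical autophagy, at the initiation step in one case and at the conjugation step in the other, so the comparison asks what differs between lines made to lack one or the other. Autophagy itself was not measured in these libraries.

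The 6 libraries held 14733663 to 17351455 reads in genes and detected 20392 to 21040 genes each. Mitochondrial genes took 3.24 to 3.97% of these reads. Of 27 erythroid and haematopoietic surface markers only 8 passed the low-count filter, 13 had no read in RB1CC1KO-labelled libraries and 12 had none in ATG7KO, with PTPRC, MPO, ALAS2 and HBB at 0 in all 6. The globin gene HBA1 passed the filter and was not called (-0.37 ± 0.35 on the log2 scale, adjusted p = 0.507), and its near-identical copy HBA2 had 6 reads in RB1CC1KO-labelled libraries, against 0 in ATG7KO. The summed level of the list was 843 to 939 CPM in RB1CC1KO-labelled libraries, against 593 to 661 CPM in ATG7KO and 490 to 554 CPM in WT. This sum rests on the few members that passed the filter and does not describe the markers as a set. In bulk RNA, a smaller share of cells and less RNA per cell cannot be told apart.

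The targeted genes were examined first. ATG7 stood at 16.7, 15.9 and 16 CPM (counts scaled to library size with edgeR's TMM factors) in the RB1CC1KO-labelled libraries, against 4.51, 3.68 and 3.87 CPM in ATG7KO and 14.2, 15.7 and 16.8 CPM in WT. Its level was low in all 3 ATG7KO libraries, with no overlap, and the log2 fold change of RB1CC1KO over ATG7KO was 2.01 ± 0.12 (standard error; adjusted p = 1.24e-15 by edgeR's quasi-likelihood test with Benjamini-Hochberg adjustment, used for all adjusted p-values here). ATG7 overlaps VGLL4 on the opposite strand, and the strand setting of the counting is not given in the sources used here. RB1CC1 itself had 147, 171 and 152 CPM in the RB1CC1KO-labelled libraries, against 104, 109 and 106 CPM in ATG7KO and 94.2, 106 and 115 CPM in WT. Its RNA was thus higher, not lower, in the line labelled as its knockout (log2 fold change 0.56 ± 0.07, adjusted p = 9.08e-08), and gene counts alone cannot show whether the message is intact, so directions below refer to the libraries labelled RB1CC1KO.

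The 4 marker genes, chosen with earlier results of these data known, did not overlap between the lines. Their separation is thus no independent finding, and 36.6% of all tested genes did not overlap either. PDGFRA, the receptor for PDGF-A, had 2.18, 3.32 and 3.16 CPM in RB1CC1KO-labelled libraries, against 33.6, 32.7 and 30.6 CPM in ATG7KO and 19.2, 21.1 and 22.4 CPM in WT (log2 fold change -3.48 ± 0.13, adjusted p = 1.83e-21). AXL, the receptor for GAS6, stood at 1.65, 1.75 and 1.76 CPM in RB1CC1KO-labelled libraries, against 6.79, 7.68 and 7.86 CPM in ATG7KO and 4.17, 4.02 and 4.65 CPM in WT (-2.11 ± 0.19, adjusted p = 3.28e-11). For both receptors WT lay between the lines. TAL1, a transcription factor needed for blood and vessel formation, had 50.4, 54.7 and 49.3 CPM in RB1CC1KO-labelled libraries, against 9.41, 10.9 and 9.48 CPM in ATG7KO and 36.1, 41.1 and 34.6 CPM in WT (2.37 ± 0.09, adjusted p = 8.53e-21). TAFA5, which encodes a small secreted protein of the TAFA family, was at 0.059, 0 and 0 CPM in RB1CC1KO-labelled libraries, against 25.8, 26.4 and 33.9 CPM in ATG7KO and 1.1, 0.744 and 0.945 CPM in WT. That is 1 read in all against 1494, a ratio of ATG7KO over RB1CC1KO of 1457 with an exact 95% counting interval from 261 to 57591 that covers counting error only. TAFA5 was thus high in ATG7KO alone, whereas TAL1 was low in ATG7KO alone.

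**Figure D1:**
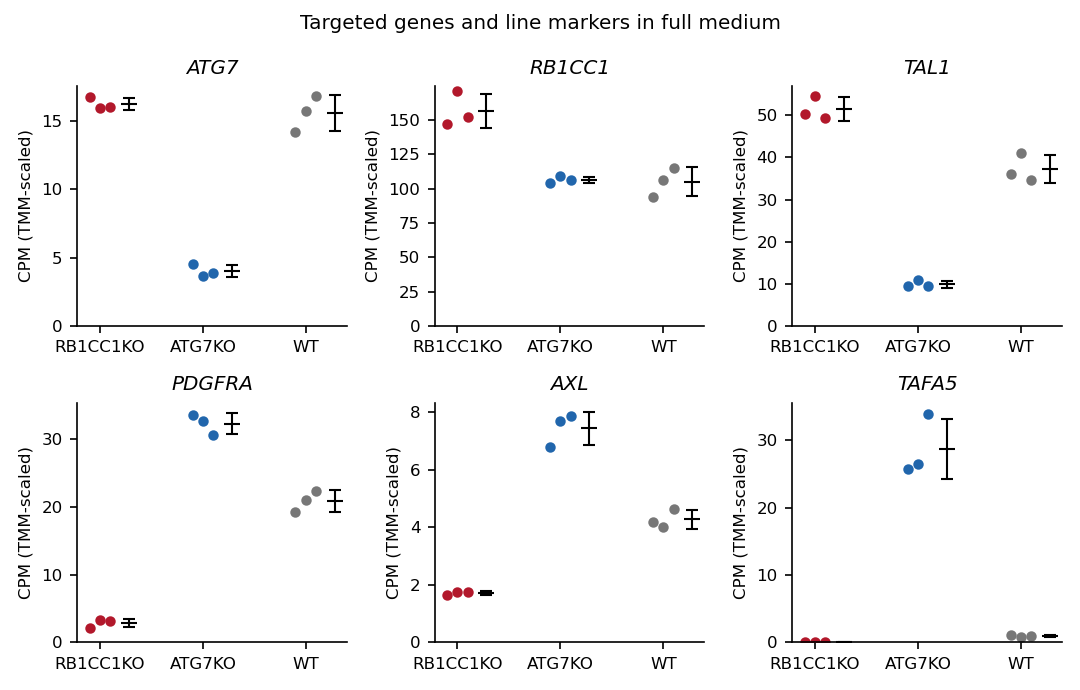
TMM-scaled CPM of the targeted genes and the 4 marker genes in each full-medium library, with the RB1CC1KO-labelled line at left, ATG7KO in the middle and WT at right; points are libraries, bars are mean and SD of 3. PDGFRA, AXL and TAFA5 are low in RB1CC1KO-labelled libraries, ATG7 and TAL1 are low in ATG7KO, and RB1CC1 is highest in the line labelled as its own knockout.

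Across the transcriptome, 3249 of 15179 tested genes were called (21.4%), of which 1732 were higher (11.4%) and 1517 lower (9.99%) in RB1CC1KO-labelled libraries. DESeq2 gave an adjusted p to 17191 genes and called 2815 (16.4%). Upper-quartile scaling gave a different split: 43.1% of calls were then higher, against 53.3% with TMM. At a change of at least 2-fold, 782 genes were called (5.15%), 309 higher (2.04%) and 473 lower (3.12%). The median log2 fold change of all tested genes was 0.03, and chromosome medians lay between 0.00 and 0.06, so no chromosome was shifted as a whole. For scale, 2606 genes differed between RB1CC1KO-labelled and WT libraries (17.2%) and 1599 between ATG7KO and WT (10.5%), 2 comparisons that share the WT libraries.

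Among protein-coding genes of moderate or high level, the largest decreases in RB1CC1KO-labelled libraries after TAFA5 were in NT5C3A, RTL8B and HCLS1. NT5C3A, a pyrimidine nucleotidase of red cells, had 0, 0 and 0.121 CPM in RB1CC1KO-labelled libraries, against 28.5, 28.5 and 28.4 CPM in ATG7KO and 25.4, 27.5 and 26.9 CPM in WT. RTL8B, a retrotransposon-derived gene of the X chromosome, had 0.118, 0.113 and 0.0607 CPM in RB1CC1KO-labelled libraries, against 42.3, 39.6 and 38.5 CPM in ATG7KO and 0.219, 0.248 and 0.315 CPM in WT. NT5C3A was thus lost in the RB1CC1KO-labelled line, while RTL8B was at a trace in WT as well and high in ATG7KO alone. HCLS1, an actin-binding substrate of blood cell tyrosine kinases, had 0.413, 0.338 and 0.364 CPM in RB1CC1KO-labelled libraries, against 49.8, 54.1 and 50 CPM in ATG7KO and 30.3, 29.9 and 32.8 CPM in WT (log2 fold change -7.08 ± 0.15, adjusted p = 4.29e-29).

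Next in size within the same limit came 8 other genes. The cadherin gene CDH3 differed by -5.76 ± 0.22 on the log2 scale (adjusted p = 2.85e-21), and CADM1, a cell adhesion molecule, by -4.30 ± 0.26 (adjusted p = 1.36e-15). THBS1, the matrix glycoprotein thrombospondin 1, which FSIP1 overlaps, had 0.472, 0.619 and 1.03 CPM in RB1CC1KO-labelled libraries, against 15.9, 14.6 and 14 CPM in ATG7KO and 4.82, 4.81 and 4.49 CPM in WT. The mesoderm factor FOXF1 (-3.91 ± 0.23), the tumour antigen PRAME (-5.03 ± 0.24) and PLAAT5 (-5.48 ± 0.25), TMEM132E (-4.38 ± 0.21) and ELAPOR2 (-4.35 ± 0.18) completed the 12 largest decreases. Each of these was called with an adjusted p of 1.36e-15 (CADM1) or less, and the libraries of the lines did not overlap, as their choice required (36.6% of all tested genes did not overlap). The size of the lowest-count changes rested on single libraries: without RB1CC1KO replicate 1 the value was -11.82 for TAFA5, against -10.03 with all libraries, -6.35 for PLAAT5 and -4.58 for FOXF1, and without RB1CC1KO replicate 3 it was -11.83 for NT5C3A, against -9.25.

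Within the same limit on mean level, the largest increases included the enzyme genes GALNT5 and ALDH1A2. GALNT5, which adds the first sugar of mucin-type O-glycans, had 27.9, 30.1 and 30.1 CPM in RB1CC1KO-labelled libraries, against 0.445, 0.378 and 0.0624 CPM in ATG7KO and 32.5, 31.3 and 34 CPM in WT (6.55 ± 0.19, adjusted p = 9.75e-25). ALDH1A2, which makes retinoic acid from retinal, had 32.6, 33.8 and 33.9 CPM in RB1CC1KO-labelled libraries, against 0.89, 1.08 and 1.12 CPM in ATG7KO and 4.31, 4.91 and 4.25 CPM in WT (5.01 ± 0.13, adjusted p = 8.3e-26). GALNT5 was therefore near the WT level in the RB1CC1KO-labelled line and nearly absent in ATG7KO, whereas ALDH1A2 differed from WT in both lines, up in one and down in the other. MYOM1, a sarcomere M-band protein, had 122, 129 and 127 CPM in RB1CC1KO-labelled libraries, against 9.02, 8.97 and 8.24 CPM in ATG7KO and 66.6, 71.6 and 76.9 CPM in WT. MGMT, which repairs alkylated guanine, had 9.26, 9.46 and 9.47 CPM in RB1CC1KO-labelled libraries, against 1, 0.757 and 1.12 CPM in ATG7KO and 8.41, 7.34 and 7.32 CPM in WT. The low line was again ATG7KO, without overlap. The remaining increases were in ZNF518B (4.89 ± 0.18), SETBP1 (4.75 ± 0.19), the glypican GPC6 (4.13 ± 0.16), CSMD1 (3.51 ± 0.19), the synaptotagmin SYT6 (3.18 ± 0.21), TMEM200A (3.05 ± 0.18), the glutathione transferase GSTM3 (2.99 ± 0.14) and LGSN (2.60 ± 0.22), with adjusted p of 8.67e-12 for LGSN and smaller for the others.

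Several genes were on in one line and silent in the other, taking at least 1 CPM in each of 3 libraries as on and at most 3 reads over 3 libraries as silent. By this description 18 genes were silent in the RB1CC1KO-labelled line and on in ATG7KO, and 11 were on in the RB1CC1KO-labelled line and silent in ATG7KO. The first group included the secreted factors TAFA5, TAFA4 and BMP7, the WNT receptor FZD10 with its antisense transcript FZD10-AS1, the calcium channel TRPC4, the protease ADAM12, NT5C3A, EHD3, PHACTR3, CALHM2, THSD7B, RHBDD1, DDIT4L, NIPAL4, RGL3 and the pseudogene FKBP9P1, whose reads could be shared with its parent gene. The second group held the calcium-binding protein S100A6, the collagen chain COL9A1, the microfibril protein MFAP2, the adhesion molecules NCAM2 and PCDHB5, the thiamine transporter SLC19A3, the tryptophan-degrading enzyme IDO1, SH2D4A, CEND1, SOX1-OT and GTF2H2, a transcription factor subunit with near-identical copies in the genome.

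The promoters of a pair of genes from each group are shown to place these silent genes in sequence, from 250 bases before to 50 after the start (RefSeq, GRCh38.p14), with every CG dinucleotide in capitals. They lie at chr22:48489303-48489602 (TAFA5, plus strand), chr3:68932498-68932797 (TAFA4, minus), chr1:153535942-153536241 (S100A6, minus) and chr6:70283148-70283447 (COL9A1, minus).
TAFA5: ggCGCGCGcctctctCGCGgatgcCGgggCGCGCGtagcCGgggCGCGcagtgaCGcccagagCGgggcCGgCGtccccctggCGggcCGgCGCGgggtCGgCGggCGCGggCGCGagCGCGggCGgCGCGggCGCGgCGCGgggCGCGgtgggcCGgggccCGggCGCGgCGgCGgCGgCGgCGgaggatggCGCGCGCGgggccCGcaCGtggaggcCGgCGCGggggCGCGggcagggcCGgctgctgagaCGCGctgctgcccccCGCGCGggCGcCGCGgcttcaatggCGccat
TAFA4: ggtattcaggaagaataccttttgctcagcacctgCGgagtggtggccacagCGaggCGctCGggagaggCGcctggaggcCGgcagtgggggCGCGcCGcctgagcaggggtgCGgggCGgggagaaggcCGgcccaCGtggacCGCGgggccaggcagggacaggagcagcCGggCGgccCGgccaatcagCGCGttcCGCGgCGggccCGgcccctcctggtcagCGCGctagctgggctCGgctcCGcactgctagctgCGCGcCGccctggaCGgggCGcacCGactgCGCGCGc
S100A6: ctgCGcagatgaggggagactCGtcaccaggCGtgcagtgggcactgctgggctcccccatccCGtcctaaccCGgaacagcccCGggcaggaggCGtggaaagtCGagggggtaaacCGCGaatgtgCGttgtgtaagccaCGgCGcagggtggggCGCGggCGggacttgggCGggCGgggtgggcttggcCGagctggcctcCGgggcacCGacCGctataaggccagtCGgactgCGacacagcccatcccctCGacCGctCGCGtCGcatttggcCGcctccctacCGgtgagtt
COL9A1: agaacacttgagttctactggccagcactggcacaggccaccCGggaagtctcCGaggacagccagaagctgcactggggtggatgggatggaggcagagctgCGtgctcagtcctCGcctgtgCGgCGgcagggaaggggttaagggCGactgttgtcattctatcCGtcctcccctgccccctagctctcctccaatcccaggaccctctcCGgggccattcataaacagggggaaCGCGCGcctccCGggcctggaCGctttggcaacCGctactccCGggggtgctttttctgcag
These windows held 67 CG in TAFA5, 37 in TAFA4, 31 in S100A6 and 16 in COL9A1, where the median of 11025 tested genes with a promoter entry was 26, with quartiles at 18 and 35. Among genes silent in the RB1CC1KO-labelled line, 12 of 18 had an entry, with a median of 26.5 CG, and among those silent in ATG7KO, 9 of 11, with a median of 16. The letters show base composition only, since methylation was not measured.

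TAFA4 had no read in RB1CC1KO-labelled libraries, against 2.73, 2.43 and 3.81 CPM in ATG7KO and 0.146, 0.198 and 0.0787 CPM in WT, at least 50.4-fold lower when 3 reads over the group are taken as the floor. S100A6 had 8.31, 7.94 and 8.68 CPM in RB1CC1KO-labelled libraries, against 0.0557, 0.0541 and 0.0624 CPM in ATG7KO and 9.14, 9.18 and 9.13 CPM in WT, or 425 reads against 3 (ratio 145, interval 49.4 to 707). COL9A1 had 4.3, 3.6 and 4.13 CPM in RB1CC1KO-labelled libraries, against 0.0557, 0.0541 and 0.0624 CPM in ATG7KO and 1.68, 1.74 and 2.44 CPM in WT (ratio 70.1, interval 23.6 to 343). S100A6 kept the WT level in the RB1CC1KO-labelled line, whereas COL9A1 was above WT there. BMP7, a growth factor of the BMP family, had 0.059, 0.0563 and 0 CPM in RB1CC1KO-labelled libraries, against 6.73, 6 and 7.42 CPM in ATG7KO and 26, 22.9 and 26.1 CPM in WT. FZD10 stood at 0.059, 0 and 0 CPM in RB1CC1KO-labelled libraries, against 10.7, 10.9 and 12 CPM in ATG7KO and 7.24, 8.23 and 8.03 CPM in WT. Its antisense transcript, which starts 203 bp away on the other strand of chromosome 12, was silent in the same line, with 1 read against 495. Of the 18 genes silent in the RB1CC1KO-labelled line, 8 averaged under 1 CPM in WT too, among them EHD3, RHBDD1, TAFA4 and TAFA5. Of the 11 silent in ATG7KO, 4 did, among them NCAM2 and CEND1.

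**Figure D2:**
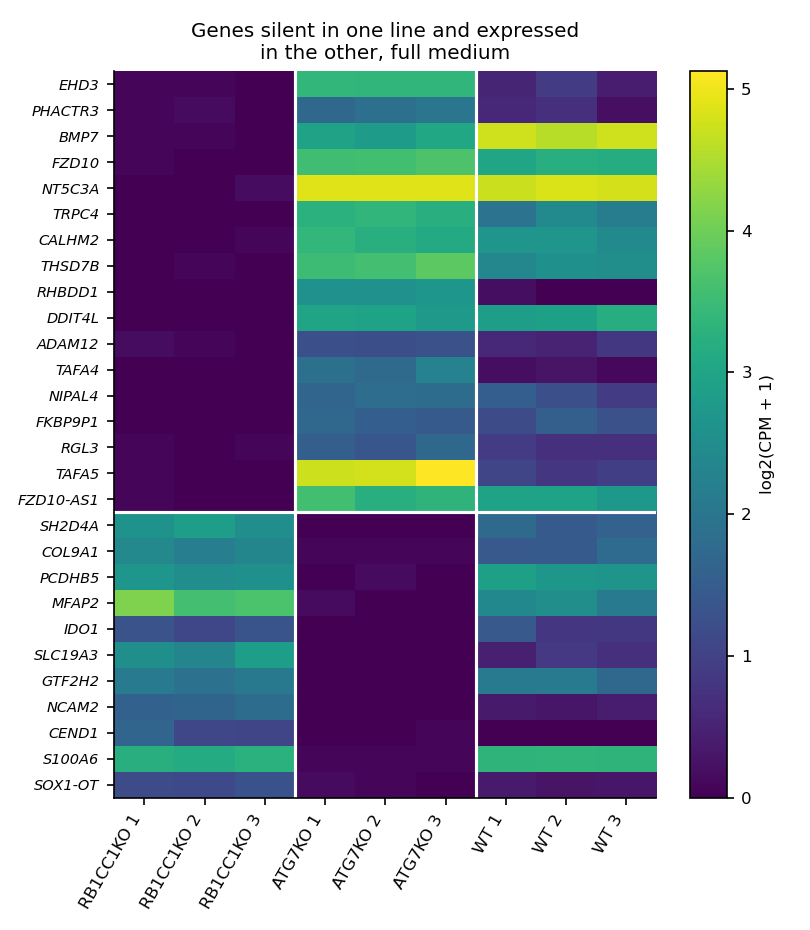
Level of 28 of the 29 genes that were silent in one line and on in the other, as log2(CPM + 1) in each full-medium library (columns: RB1CC1KO-labelled, ATG7KO, WT). The upper 17 rows are dark in RB1CC1KO-labelled libraries and the lower 11 in ATG7KO; WT shows both patterns.

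Near the thresholds, RTL8B missed the first group with 5 reads in RB1CC1KO-labelled libraries and WNT7B missed the second with 4 reads in ATG7KO. EBSS libraries, which did not enter the choice, held at most 3 reads in the RB1CC1KO-labelled line for 13 of the 18 genes and in ATG7KO for 8 of the 11. Levels in the on line stayed above those in the silent line, without overlap, for 17 of the 18 and 11 of the 11, where 39.2% of all tested genes did not overlap after EBSS in either direction. These genes were chosen for their extreme difference in full medium.

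Receptor tyrosine kinases pass growth factor signals to the RAS-ERK cascade, which switches on immediate early genes and its own inhibitors, the Sprouty, SPRED and DUSP proteins. Of 45 tested receptors, 8 were higher and 11 lower in RB1CC1KO-labelled libraries (median log2 fold change -0.07, against 0.03 for all genes). The share called was 42.2%, against 21.4% of all genes, and it counts the markers PDGFRA and AXL. Besides PDGFRA and AXL, ERBB2 was lower, with 10.3, 8.95 and 9.77 CPM in RB1CC1KO-labelled libraries, against 75.1, 74.2 and 69.6 CPM in ATG7KO and 16.8, 14.2 and 14.6 CPM in WT (-2.92 ± 0.10, adjusted p = 1.15e-22), although it overlaps MIEN1 and PGAP3 on the other strand. EGFR, named after its values were seen, had 0.413, 0.169 and 0.303 CPM in RB1CC1KO-labelled libraries, against 3.01, 2.97 and 4.55 CPM in ATG7KO (-3.54 ± 0.43, adjusted p = 7.92e-08). Both ERBB family receptors were above WT in ATG7KO, and WT averaged 0.287 CPM for EGFR.

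Other receptors went the opposite way. MET, the receptor for hepatocyte growth factor, had 124, 133 and 127 CPM in RB1CC1KO-labelled libraries, against 42.2, 41.9 and 40.9 CPM in ATG7KO and 57.6, 63.5 and 62.1 CPM in WT (1.62 ± 0.07, adjusted p = 1.5e-19). KIT, the receptor for stem cell factor, had 8.85, 10.4 and 10.1 CPM in RB1CC1KO-labelled libraries, against 2.23, 1.84 and 2 CPM in ATG7KO and 10.5, 12.2 and 10.1 CPM in WT (2.27 ± 0.17, adjusted p = 3.55e-13). MET was thus highest in the RB1CC1KO-labelled line, while KIT was at the WT level there and low in ATG7KO. Of the AXL relatives, MERTK was higher (0.46 ± 0.09, adjusted p = 0.000181) and TYRO3 was not called (-0.00 ± 0.07, adjusted p = 0.993).

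Among 34 ligands, 3 were higher and 8 lower (median -0.09, 32.4% called against 21.4% of all genes), with 4 lower without ATG7KO replicate 1 and 5 without ATG7KO replicate 2. GAS6 and PROS1, the ligands of AXL and its relatives, were both lower, GAS6 with 17, 13.3 and 15.8 CPM in RB1CC1KO-labelled libraries, against 22.3, 22.4 and 25.6 CPM in ATG7KO and 15.9, 14.6 and 17.3 CPM in WT (-0.60 ± 0.11, adjusted p = 9.79e-05). PROS1 differed by -0.71 ± 0.18 (adjusted p = 0.00411) and the neuregulin NRG2 by -0.98 ± 0.20 (adjusted p = 0.000235). The ephrins EFNA3 (0.83 ± 0.13, adjusted p = 7.36e-06) and EFNA5 (0.30 ± 0.06, adjusted p = 0.000587) were higher.

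The ERK feedback and immediate early list had 27 tested members, of which 3 were higher and 11 lower in RB1CC1KO-labelled libraries (median -0.11, 51.9% called against 21.4% of all genes). EGR1, an immediate early transcription factor, had 4.6, 4.67 and 4.13 CPM in RB1CC1KO-labelled libraries, against 11.3, 13 and 10.7 CPM in ATG7KO and 8.48, 6 and 8.82 CPM in WT (-1.38 ± 0.14, adjusted p = 4.66e-09). The ERK inhibitor SPRY4 had 0.531, 0.394 and 0.303 CPM in RB1CC1KO-labelled libraries, against 1.34, 1.57 and 1.68 CPM in ATG7KO and 0.365, 0.198 and 0.157 CPM in WT (-1.88 ± 0.32, adjusted p = 2.19e-05). The phosphatase gene DUSP4 (-1.41 ± 0.24, adjusted p = 2.09e-05), the ETS factor ETV5 (-1.52 ± 0.25, adjusted p = 1.16e-05) and PHLDA1 (-0.88 ± 0.11, adjusted p = 3.96e-08) were lower as well. SPRY4, DUSP4 and ETV5 were called above WT in ATG7KO, and were not called against WT in the RB1CC1KO-labelled line (adjusted p of 0.317, 0.73 and 0.865). The 3 higher members were ETV1, JUN and MYC.

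After EBSS the direction of this list was different: 18 members were higher in RB1CC1KO-labelled libraries and 0 lower (13.7% and 15.6% of all genes by edgeR), with a median of 0.52. The change of the line difference between media was itself called for 18 members, all upward, where 0.982% of all genes were called upward. SPRY4 differed by 0.75 ± 0.18 after EBSS (adjusted p = 0.00108), against -1.88 in full medium, and EGR1 by 0.44 ± 0.08 (adjusted p = 4.63e-05), against -1.38. EBSS depth was uneven, with 4892072 reads in genes in ATG7KO replicate 3 and 26005942 in RB1CC1KO-labelled replicate 2, and its part in this result was not tested.

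YAP and TAZ are transcriptional coactivators that bind TEAD factors and respond to cell contact, matrix and serum. Of 20 tested targets, 2 were higher and 10 lower in RB1CC1KO-labelled libraries (median -0.27, 60% called against 21.4% of all genes), with 1 higher on leaving out ATG7KO replicate 1 or any RB1CC1KO library. CCN2, a matricellular protein and a standard target, had 13.2, 12.3 and 12.2 CPM in RB1CC1KO-labelled libraries, against 29.4, 25.7 and 30.4 CPM in ATG7KO and 16.9, 17.8 and 20.3 CPM in WT (-1.18 ± 0.11, adjusted p = 9.21e-11). CCN1, its relative, had 98.5, 112 and 107 CPM in RB1CC1KO-labelled libraries, against 179, 176 and 178 CPM in ATG7KO and 117, 117 and 115 CPM in WT (-0.75 ± 0.06, adjusted p = 3.15e-12). Both were highest in ATG7KO. Against WT, CCN2 was lower in the RB1CC1KO-labelled line (-0.54 ± 0.11, adjusted p = 0.000631) and CCN1 was not called (-0.14 ± 0.06, adjusted p = 0.125). ARHGEF17 (-0.80 ± 0.11, adjusted p = 2.42e-06) and CRIM1 (-0.55 ± 0.08, adjusted p = 3.37e-06) were also lower. The marker AXL is itself a member of this list and is counted among its lower members. After EBSS, 4 targets were higher and 5 lower (13.7% and 15.6% of all genes).

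The CCN2 promoter (RefSeq, GRCh38.p14, chr6:131951323-131951622, minus strand) is shown because it carries the TEAD core motif GGAATG, in capitals, 3 times on the strand of the gene.
CCN2: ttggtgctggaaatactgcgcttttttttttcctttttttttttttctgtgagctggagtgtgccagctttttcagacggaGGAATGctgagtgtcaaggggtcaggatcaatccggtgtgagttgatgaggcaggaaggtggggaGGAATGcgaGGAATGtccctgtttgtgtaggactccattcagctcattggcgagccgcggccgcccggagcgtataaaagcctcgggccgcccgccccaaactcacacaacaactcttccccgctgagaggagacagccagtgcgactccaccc
GGAATG or its reverse complement CATTCC occurred in 7 of the 14 target promoters with an entry (50%), against 10.4% of 11025 promoters of tested genes. The list was made of known targets of coactivators that bind TEAD factors, so this share is no independent finding. Of the 7, LATS2, CCN2, NUAK2 and TGFB2 were called lower in RB1CC1KO-labelled libraries, as were most called targets of the list, and ANKRD1, FOXF2 and PTPN14 were not called. A match describes the letters of the window and not a bound site.

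**Figure D3:**
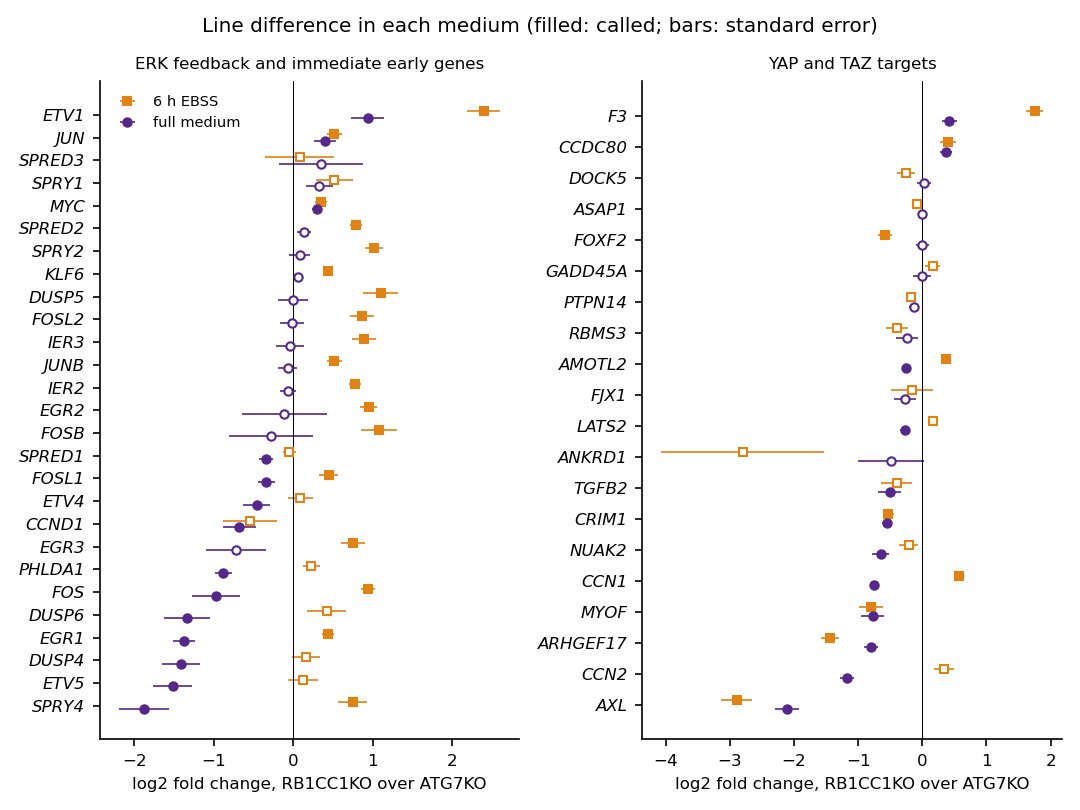
Log2 fold change of RB1CC1KO-labelled over ATG7KO libraries for 27 ERK-responsive genes (left) and 20 YAP and TAZ targets (right), after 6 h EBSS (squares) and in full medium (circles); filled symbols were called, bars are standard errors. SPRY4, ETV5, DUSP4 and EGR1 lie below 0 in full medium and above 0 after EBSS, while AXL lies below 0 in both media.

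TAL1 acts with E-proteins, LMO and GATA factors in early blood cells. Of 9 tested members of this complex and its relatives, 5 were higher and 3 lower in RB1CC1KO-labelled libraries (88.9% called, against 21.4% of all genes). TAL1, a marker chosen with earlier results of these data known, is counted among the 5. The share is thus no independent finding. The E-protein gene TCF12 had 181, 197 and 184 CPM in RB1CC1KO-labelled libraries, against 115, 119 and 106 CPM in ATG7KO and 138, 146 and 155 CPM in WT (0.72 ± 0.06, adjusted p = 3.41e-11). TCF4 (0.38 ± 0.07) and LDB1 (0.31 ± 0.08) were higher too, whereas LMO1 (-1.46 ± 0.23, adjusted p = 6.7e-06), GATA2 (-0.29 ± 0.08) and the TAL1 relative LYL1 (-2.51 ± 0.64) were lower. The partners therefore did not follow TAL1 as a group. IKZF1, a lymphoid factor, had no read in RB1CC1KO-labelled libraries, against 37 in ATG7KO, at least 12-fold lower. Over all 21 tested haematopoietic factors, TAL1 included, 8 were higher and 6 lower (median 0.02, 66.7% called). Among surface markers, the transferrin receptor gene TFRC was higher (0.52 ± 0.06, adjusted p = 1.97e-08) and the ankyrin gene ANK1 lower (-1.17 ± 0.14, adjusted p = 4.73e-08).

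Mesenchymal markers were lower more often than higher, with 1 higher and 6 lower (PDGFRA, chosen as a marker, among these) of 15 tested (median -0.22, 46.7% called against 21.4% of all genes). Their summed level was 834 to 876 CPM in RB1CC1KO-labelled libraries, against 1247 to 1293 CPM in ATG7KO and 940 to 954 CPM in WT, with LUM and DCN at 0 in all 9 full-medium libraries. SPARC, a matrix-binding glycoprotein, had 56.8, 51.8 and 49.6 CPM in RB1CC1KO-labelled libraries, against 160, 167 and 151 CPM in ATG7KO and 109, 105 and 105 CPM in WT (-1.59 ± 0.07, adjusted p = 1.72e-19). The intermediate filament gene VIM (-0.62 ± 0.06), the smooth muscle actin gene ACTA2 (-1.46 ± 0.11), which overlaps FAS, and the repressor ZEB1 (-0.48 ± 0.08) were lower as well, and FN1, fibronectin, was higher (0.40 ± 0.07). SPARC, ACTA2 and VIM were highest in ATG7KO, with no overlap between the lines. The part of this marker level in the other results was not tested.

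Of 17 epithelial markers only 7 passed the low-count filter. GRHL2 had no read in either line, and CDH1 had 1 read in RB1CC1KO-labelled libraries and 6 in ATG7KO. The tested markers did not move together: 3 of 7 were higher and 1 lower (57.1% called, against 21.4% of all genes). Of the higher ones, DSP (0.25) was not called without ATG7KO replicate 1. KRT18 (0.24) was not called without ATG7KO replicate 3, RB1CC1KO replicate 1 or RB1CC1KO replicate 3. KRT8, a keratin of simple epithelia that overlaps KRT18, had 21.6, 19.3 and 20.4 CPM in RB1CC1KO-labelled libraries, against 8.85, 6.43 and 7.74 CPM in ATG7KO and 28.2, 24.3 and 28.1 CPM in WT (1.41 ± 0.12, adjusted p = 1.49e-11). The epithelial splicing factor ESRP1 went the other way, with 0.177, 0.0563 and 0.121 CPM in RB1CC1KO-labelled libraries, against 9.18, 9.35 and 7.74 CPM in ATG7KO and 14, 14.4 and 14 CPM in WT (-6.13 ± 0.27, adjusted p = 9.84e-20). KRT8 was thus lowest in ATG7KO and ESRP1 nearly silent in the RB1CC1KO-labelled line. Of 16 neural markers, 5 were higher and 2 lower (43.8% called). The adhesion molecule CHL1 had 6.25, 9.06 and 8.01 CPM in RB1CC1KO-labelled libraries, against 0.278, 0.0541 and 0.125 CPM in ATG7KO and 18.1, 20 and 21 CPM in WT (5.60 ± 0.29, and 6.36 without ATG7KO replicate 1). The GABA receptor subunit GABRA5 was higher (1.42 ± 0.08), and nestin (NES, -0.77 ± 0.06) and GAP43 (-2.37 ± 0.40) were lower.

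Collagen chains split evenly, with 7 higher and 7 lower of 23 tested (median -0.11, 60.9% called against 21.4% of all genes). The basement membrane chain COL4A4 was higher (0.95 ± 0.11, adjusted p = 3.14e-08), while COL4A5 (-0.54 ± 0.07) and COL4A6 (-0.67 ± 0.07) of the same family were lower. COL5A2, a fibrillar chain, had 7.43, 8.16 and 7.89 CPM in RB1CC1KO-labelled libraries, against 20.4, 23.9 and 20.3 CPM in ATG7KO and 30, 29.2 and 31.8 CPM in WT. COL11A1, named after its values were seen, was at a trace in both lines, with 0.059, 0.0563 and 0.182 CPM in RB1CC1KO-labelled libraries, against 0.39, 0.324 and 0.125 CPM in ATG7KO, where WT averaged 82 CPM, and it was not called between the lines (adjusted p = 0.0963).

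Of 17 tested clustered protocadherins, whose members are similar in sequence and may share reads, 4 were higher and 2 lower (35.3% called). PCDHB5 had 5.48, 4.73 and 4.98 CPM in RB1CC1KO-labelled libraries, against 0, 0.108 and 0 CPM in ATG7KO and 6.58, 5.56 and 5.28 CPM in WT (6.79 ± 0.44, and 9.32 without ATG7KO replicate 2). Among 26 HOX genes 3 were higher and 3 lower (23.1%, near the 21.4% of all genes), with HOXD13, a factor of distal limb patterning, at 11, 12.4 and 14.3 CPM in RB1CC1KO-labelled libraries, against 53.3, 48.3 and 56.6 CPM in ATG7KO and 17.4, 15.2 and 16.1 CPM in WT (-2.07 ± 0.10, adjusted p = 7.11e-19). HOXC10 was higher (1.08 ± 0.19, adjusted p = 4.02e-05). Of 11 TCEAL, BEX and RTL8 genes of the X chromosome, none was higher (0 of 11) and 3 were lower (27.3% called), RTL8A (-0.83 ± 0.10) and TCEAL2 (-1.59 ± 0.23) beside RTL8B. Imprinted genes gave 4 higher and 4 lower of 21 (2 lower with DESeq2 or without RB1CC1KO replicate 1), with 38.1% called. The protease inhibitor TFPI2 (2.48 ± 0.32), DLK1 (0.87 ± 0.15) and H19 (0.62 ± 0.12) were higher, and PEG10 (-0.44 ± 0.06) and IGF2 (-0.76 ± 0.20) lower. Of 35 cancer-testis and germline genes only 4 were tested, with 1 higher and 2 lower (median -2.02). The germ cell gene DAZL was the higher one (1.16 ± 0.09), and PRAME, described above, was among the lower.

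Retinoic acid, a ligand of nuclear receptors that patterns the embryo, is made from retinol by dehydrogenases and bound in the cytoplasm by CRABP proteins. Of 14 tested genes of this pathway, 6 were higher (3 without RB1CC1KO replicate 2) and 3 lower (median 0.07, 64.3% called against 21.4% of all genes). ALDH1A2 is described above. The related synthesis enzyme ALDH1A3 had 12.6, 14.5 and 14.6 CPM in RB1CC1KO-labelled libraries, against 23.4, 23.5 and 20.1 CPM in ATG7KO (-0.69 ± 0.10, adjusted p = 1.95e-06). CRABP1 had 5.9, 3.83 and 3.58 CPM in RB1CC1KO-labelled libraries, against 15.5, 14.2 and 15.2 CPM in ATG7KO and 8.41, 7.89 and 6.14 CPM in WT (-1.75 ± 0.17, adjusted p = 1.89e-10). The 2 enzymes thus differed in opposite directions.

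WNT ligands bind Frizzled receptors with LRP5 or LRP6. Of 37 tested genes, 7 were higher and 11 lower (median -0.08, 48.6% called against 21.4% of all genes). In this list 3 ligands were higher and 3 lower, 1 receptor was higher and 6 lower, and 3 inhibitors were higher and 2 lower. The ligand gene WNT7B had 2.24, 2.42 and 2.73 CPM in RB1CC1KO-labelled libraries, against 0, 0.162 and 0.0624 CPM in ATG7KO and 0.292, 0.248 and 0.709 CPM in WT (4.88 ± 0.52, and 6.05 without ATG7KO replicate 2). WNT5B was lower (-1.91 ± 0.26, adjusted p = 6.68e-07). Of the receptors, FZD7 (-0.53 ± 0.07, adjusted p = 8.21e-07) and LRP5 (-0.67 ± 0.09, adjusted p = 1.85e-07) were lower beside FZD10, whose fitted value of -8.68 was -10.47 without RB1CC1KO replicate 1. No member of the 8 targets and factors of the pathway was called by edgeR (0 of 8).

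BMP and TGF-beta ligands signal through SMAD proteins and are held in check by secreted antagonists. Of 38 tested genes, 3 were higher and 16 lower (median -0.28, 50% called against 21.4% of all genes). The lower ones comprised 6 of 14 ligands, 1 of 11 receptors, 5 of 8 inhibitors and 4 of 5 targets. NOG, the secreted antagonist noggin, had 14.2, 12 and 13.9 CPM in RB1CC1KO-labelled libraries, against 24.9, 24.3 and 27.7 CPM in ATG7KO and 15.6, 19.3 and 18.3 CPM in WT (-0.94 ± 0.12, adjusted p = 8.82e-08). NOG was lower in the RB1CC1KO-labelled line than in either other line, and the distance from WT was smaller than that from ATG7KO. The inhibitory SMAD6 was lower (-1.0 ± 0.14, adjusted p = 8.69e-07), as were the target genes ID1 (-0.38 ± 0.08), ID2 (-0.58 ± 0.11) and ID3 (-0.47 ± 0.11), while BMP4 was higher (0.88 ± 0.18). After EBSS, 3 of the 5 targets were higher and 0 lower (13.7% and 15.6% of all genes). The change between media was called upward for 4, where 0.982% of all genes were called upward.

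**Figure D4:**
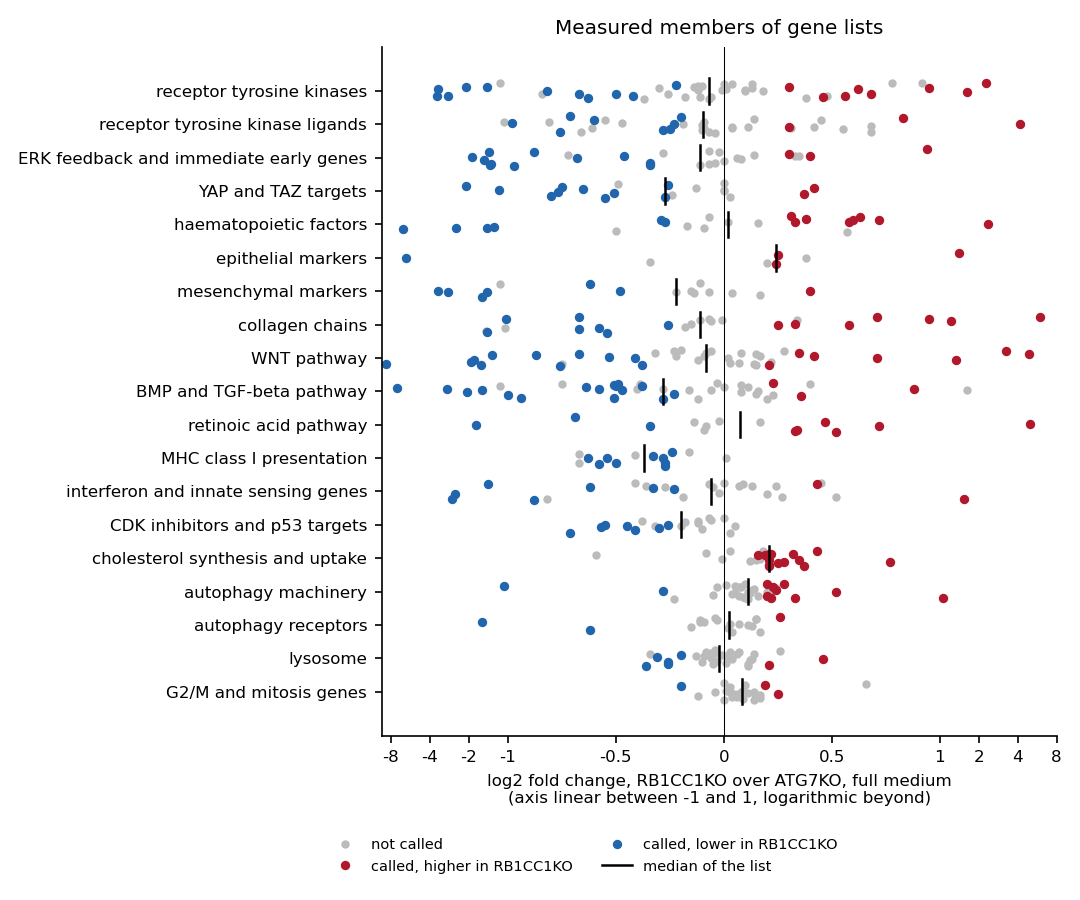
Log2 fold change of RB1CC1KO-labelled over ATG7KO libraries in full medium for the tested members of 19 gene lists; each point is a gene, coloured if called, and the black bar is the median of the list. The cholesterol list has 14 called members, all above 0, and the MHC class I list has 9, all below 0; the axis is linear between -1 and 1 and logarithmic beyond.

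Antigen presentation genes had calls in the lower direction. Of 14 tested MHC class I presentation genes, 0 were higher and 9 lower (median -0.37, 64.3% called against 21.4% of all genes). After EBSS the counts were again 0 and 9, where 13.7% of all genes were higher and 15.6% lower. The peptide transporter gene TAP1 had 41.6, 40.6 and 43.7 CPM in RB1CC1KO-labelled libraries, against 61.4, 59 and 63 CPM in ATG7KO and 51.2, 45.2 and 53.4 CPM in WT (-0.54 ± 0.08, adjusted p = 3.44e-06). TAP2 (-0.58 ± 0.10), the immunoproteasome subunit gene PSMB8 (-0.63 ± 0.12), B2M (-0.28 ± 0.07), the trimming peptidase gene ERAP1 (-0.33 ± 0.08) and the transactivator NLRC5 (-0.50 ± 0.12) were lower as well. Reads of the HLA genes may be shared between near-identical copies.

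Innate sensing genes included the largest changes of the immune lists. CGAS, the cytosolic DNA sensor, had 2.01, 3.43 and 2.73 CPM in RB1CC1KO-labelled libraries, against 13.6, 16.4 and 17.7 CPM in ATG7KO and 4.53, 6.45 and 7.4 CPM in WT (-2.54 ± 0.17, adjusted p = 1.32e-14). STING1, its downstream adaptor, had 0.944, 0.788 and 0.789 CPM in RB1CC1KO-labelled libraries, against 5.51, 5.73 and 5.43 CPM in ATG7KO and 1.61, 2.43 and 2.05 CPM in WT (-2.71 ± 0.26, adjusted p = 2.26e-10). Both genes were below WT in the RB1CC1KO-labelled line and above it in ATG7KO. Over 26 interferon and sensing genes 2 were higher and 7 lower (4 lower without RB1CC1KO replicate 1), with a median of -0.06 and 34.6% called, against 21.4% of all genes. IFITM1, which has close copies, was higher (1.55 ± 0.19, adjusted p = 6.94e-08).

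CDK inhibitors and p53 targets gave 0 higher and 7 lower of 19 (median -0.20, 36.8% called against 21.4% of all genes). CDKN1A, the p21 inhibitor, had 103, 111 and 101 CPM in RB1CC1KO-labelled libraries, against 162, 193 and 159 CPM in ATG7KO and 157, 166 and 146 CPM in WT (-0.71 ± 0.08, adjusted p = 1.17e-08). PMAIP1 (-0.41 ± 0.08, adjusted p = 0.000115), a BH3-only death gene, and TP53I3 (-0.57 ± 0.11, adjusted p = 0.000164) were lower too. For CDKN1A it was the RB1CC1KO-labelled line that stood below the other 2. Cell cycle lists had 4 higher and 1 lower of 24 G1/S genes and 2 higher and 1 lower of 24 G2/M genes, shares of 20.8% and 12.5% against the background of 21.4%. Without RB1CC1KO replicate 3 or ATG7KO replicate 3 the higher G1/S count was 2, and without RB1CC1KO replicate 2 the lower one was 2. The higher G2/M count was 1 on leaving out any library but RB1CC1KO replicate 1, and the lower one was 0 without ATG7KO replicate 1, ATG7KO replicate 2 or RB1CC1KO replicate 1. Among NRF2 targets, 5 were higher and 4 lower of 24 (37.5% called). The aldo-keto reductases AKR1C1 (1.45 ± 0.26) and AKR1C3 (1.67 ± 0.31), which are close copies, were higher, and the ferritin chain FTL (-0.54 ± 0.06) and NFE2L2 itself (-0.34 ± 0.07) were lower.

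Cholesterol synthesis and uptake genes were higher in 14 and lower in 0 of 23 tested (median 0.21, 60.9% called against 21.4% of all genes). After EBSS 15 were higher and 0 lower (13.7% and 15.6% of all genes). MVD, a decarboxylase of the mevalonate pathway, had 42.7, 37.5 and 43.6 CPM in RB1CC1KO-labelled libraries, against 22.4, 24.3 and 26.1 CPM in ATG7KO and 37.3, 33.7 and 30.9 CPM in WT (0.77 ± 0.09, adjusted p = 6.26e-08). HMGCS1, the synthase at the head of the pathway, had 204, 239 and 215 CPM in RB1CC1KO-labelled libraries, against 175, 183 and 169 CPM in ATG7KO and 152, 174 and 157 CPM in WT (0.32 ± 0.07, adjusted p = 0.000282). Against WT, MVD was higher in the RB1CC1KO-labelled line (0.28) and lower in ATG7KO (-0.49), and HMGCS1 was higher in the RB1CC1KO-labelled line (0.45). DHCR7 (0.35 ± 0.07), FDFT1 (0.25 ± 0.06) and MVK (0.43 ± 0.10) were higher. The changes were small, and the count fell to 7 without RB1CC1KO replicate 2 and to 8 without RB1CC1KO replicate 3.

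Stress and metabolic programmes were examined next. Of 25 ATF4-linked genes, which answer amino acid shortage, 1 was higher and 6 lower (median -0.06, 28% called against 21.4% of all genes). VLDLR (-0.68 ± 0.08), the stress hormone GDF15 (-1.58 ± 0.33) and DDIT4 (-0.49 ± 0.13) were among the lower ones. The 1 higher ATF4-linked call was lost without ATG7KO replicate 3 or RB1CC1KO replicate 3, and there were 2 without RB1CC1KO replicate 1. Of 20 unfolded protein response genes, 2 were higher and 1 lower (15% called, below the 21.4% of all genes). The higher count was 1 without ATG7KO replicate 3 or RB1CC1KO replicate 3, and the lower one was 0 without ATG7KO replicate 1 and 2 without ATG7KO replicate 2. Glycolysis and hypoxia genes gave 6 higher (2 without RB1CC1KO replicate 3) and 2 lower of 25 (0 or 1 on leaving out any library but RB1CC1KO replicate 1), with 32% called. The glucose transporter gene SLC2A1 had 134, 122 and 134 CPM in RB1CC1KO-labelled libraries, against 94.4, 95.7 and 99.1 CPM in ATG7KO and 114, 101 and 107 CPM in WT (0.43 ± 0.07, adjusted p = 8e-06).

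Of 33 autophagy machinery genes other than the 2 targets, 9 were higher and 2 lower (33.3% called, against 21.4% of all genes), with a median log2 fold change of 0.11 and a range from -1.07 (GABARAP) to 1.07 (ATG9B). The ULK1 complex member ATG13 had 108, 102 and 101 CPM in RB1CC1KO-labelled libraries, against 87.2, 88.2 and 81.5 CPM in ATG7KO and 107, 97.6 and 105 CPM in WT (0.28 ± 0.06, adjusted p = 0.000668), although HARBI1 overlaps it. ULK1 was not called (0.12 ± 0.09, adjusted p = 0.394). In the VPS34 lipid kinase complex UVRAG (0.33 ± 0.09, adjusted p = 0.00475), PIK3C3 (0.23 ± 0.08) and BECN1 (0.20 ± 0.07) were higher, and UVRAG was not called without RB1CC1KO replicate 3 (adjusted p = 0.0694). Of the phagophore expansion genes, ATG9B (1.07 ± 0.35, adjusted p = 0.0275), WIPI1 (0.52 ± 0.19, adjusted p = 0.0455) and WIPI2 (0.24 ± 0.06) were higher and the lipid transfer protein gene ATG2B lower (-0.28 ± 0.07). The count of higher members depended on single libraries, at 3 without ATG7KO replicate 3, 5 without RB1CC1KO replicate 2 and 2 without RB1CC1KO replicate 3, and it was 5 with upper-quartile scaling, without the low-count filter or with only the compared groups.

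The largest change in an autophagy receptor was in RETREG1 (FAM134B), which targets endoplasmic reticulum to autophagosomes. It had 5.13, 6.59 and 5.76 CPM in RB1CC1KO-labelled libraries, against 19, 17.2 and 16.4 CPM in ATG7KO and 16.7, 16.9 and 16.9 CPM in WT (-1.59 ± 0.12, adjusted p = 1.44e-12), so the RB1CC1KO-labelled line alone was low. Of 18 receptors, 1 was higher and 2 lower (16.7% called, against 21.4% of all genes). The higher one, BNIP3 (0.26), was not called without ATG7KO replicate 2 or RB1CC1KO replicate 3, and CCPG1 (-0.62), lower beside RETREG1, was not called with DESeq2 or without ATG7KO replicate 1, ATG7KO replicate 2 or RB1CC1KO replicate 3. SQSTM1, which encodes the receptor p62, was not called (-0.15 ± 0.06, adjusted p = 0.0893). GABARAP, an ATG8 protein, had 0.944, 1.18 and 0.668 CPM in RB1CC1KO-labelled libraries, against 1.73, 2.43 and 1.75 CPM in ATG7KO and 0.877, 1.24 and 1.34 CPM in WT, on 48 and 104 reads in all. Lysosomal genes gave 2 higher (0 without ATG7KO replicate 1 or RB1CC1KO replicate 3) and 5 lower (3 without ATG7KO replicate 1 or 2) of 32, close to the background, with the protease gene CTSZ (-0.36 ± 0.06) and CD63 (-0.26 ± 0.06) lower.

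The EBSS libraries give the same contrast in cultures that the full-medium comparison did not use. Of the 3249 genes called in full medium, 3024 (93.1%) had the same sign after EBSS and 2163 (66.6%) were called in the same direction, while 40 were called in the opposite one. For all 15179 genes the same sign was seen in 71%. Of the 782 genes with at least a 2-fold change, 751 (96%) kept the sign, 599 (76.6%) were called in the same direction and 3 in the opposite one. After EBSS 4445 genes were called (29.3%), of which the 2163 are 48.7%. The difference between the 2 media was called for 498 genes (3.28%), and for 44 of the 782. PDGFRA (-3.76 ± 0.14, adjusted p = 1.81e-21), AXL (-2.89 ± 0.24, adjusted p = 5.74e-12), TAL1 (3.35 ± 0.16, adjusted p = 1.69e-18) and TAFA5 (-8.01 ± 0.32, adjusted p = 5.03e-21) differed between the lines after EBSS too, in the direction seen in full medium.

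**Figure D5:**
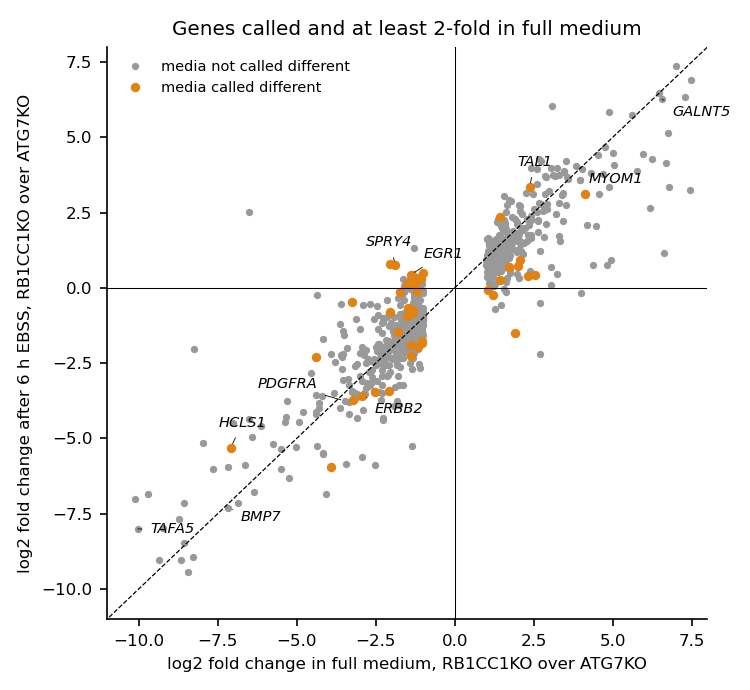
Log2 fold change of RB1CC1KO-labelled over ATG7KO libraries in full medium (x axis) and after 6 h EBSS (y axis) for the 782 genes called with at least a 2-fold change in full medium; the dashed line marks equal values. Most points lie in the lower left and upper right, and the 44 orange points are genes whose line difference was called different between media, among them SPRY4 and EGR1.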

How the data were processed

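Polyadenylated RNA was sequenced from 6 groups of 3 HAP1 libraries, made with a directional kit per the labels' protocols. For each library the authors deposited unnormalized whole-number counts of reads for 63677 Ensembl identifiers, followed by 5 summary lines. GRCh37 (hg19), HTSeq 0.6.1p1, STAR 2.4.2a, DESeq2, edgeR and Picard are named, without roles, in the submitters' processing notes; the strand setting is not given in the sources used here, so overlapping genes on opposite strands may share reads. Summary lines stayed out of library sizes: in the 6 compared libraries 11.2 to 15.1% of uniquely aligned reads fell in no gene and 2.28 to 2.42% in more than 1. GENCODE 29 (GRCh38) named 52526 identifiers and served for names and chromosomes; promoter sequences are from RefSeq, GRCh38.p14, which held an entry for 11025 of the tested genes. No replicate was a repeat of another.

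The count model was built in R 4.3.3 with edgeR 4.0.16 (and limma 3.58.1). Genes passing filterByExpr (15179) were scaled with TMM, and 1 quasi-likelihood model with 6 group means was fitted to all 18 libraries; calls were made at an adjusted p below 0.05 (Benjamini-Hochberg, over all tested genes). The standard error of a log2 fold change is its size over the square root of F. The common biological coefficient of variation was 6.72%. On simulated counts for 15179 genes with 200 changed, the full-medium comparison recovered 79.1% of genes changed 1.5-fold, 80.6% at 2-fold and 95.5% at 4-fold, and 3.95% of calls were false. The simulation gave each gene the spread of the fitted trend, without variation of its own, and changed far fewer genes than the 3249 called. Its shares describe that setting and not the real libraries. Ratios on 1 to 3 reads carry exact 95% intervals, and a count of 0 is bounded with 3 reads over the group; both cover counting error only. Alternatives were DESeq2 1.42.0, other scalings and filters, only the compared groups, a replicate block and leaving out each library.

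Named genes are ATG7, RB1CC1 and the 4 markers, the 12 protein-coding genes with the largest change in each direction (mean log2 CPM of at least 1, groups not overlapping), and up to 5 called members with the smallest p from each of 32 lists; other called list members named beside them were chosen after their values were seen. The comparison, its markers and the lists were chosen with earlier results of these data known. Lists are described by counts and medians, without a set test. PCDHGB5 and NEFL had no match, and a few genes that the rule or the lists hold are not reported here. ZNF genes had 20 higher and 35 lower of 411 (13.4%), ribosomal protein genes 2 and 2 of 81, and mitochondrial mRNAs 0 of 13 by edgeR.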

Additional observations from a re-analysis of the deposited data

Results flagged for a closer look

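A closer look is due where the difference between the lines itself differed between media, as tested in edgeR's model by the EBSS contrast minus the full-medium contrast, with Benjamini-Hochberg adjustment over all genes. Of the 162 named genes 27 met this, where 3.28% of all 15179 genes were called. Most named genes were chosen by their full-medium change, which also enters this difference, so these shares cannot be compared. Each value below is this difference on the log2 scale; a positive one means that RB1CC1KO stood higher relative to ATG7KO after EBSS than in full medium. Groups of 3 libraries were not examined for single stray values.

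Among ERK-responsive genes the difference was 2.63 for SPRY4 (adjusted p = 1.53e-05), 1.83 for EGR1 (adjusted p = 2.63e-08), 1.64 for ETV5, 1.57 for DUSP4 and 1.11 for PHLDA1. These 5 were lower in RB1CC1KO-labelled libraries in full medium and had a positive log2 fold change after EBSS, which was not itself called for ETV5 (0.12, adjusted p = 0.684), DUSP4 (0.16, adjusted p = 0.539) or PHLDA1 (0.23, adjusted p = 0.11). Among YAP and TAZ targets it was 1.33 for CCN1 (adjusted p = 3.36e-12) and 1.52 for CCN2 (adjusted p = 2.65e-06), and -0.64 for ARHGEF17 (adjusted p = 0.0404). CDKN1A, with 1.12 (adjusted p = 8.33e-08), and DDIT4, with 0.94 (adjusted p = 0.000111), also had positive differences: CDKN1A differed by 0.41 after EBSS, against -0.71 in full medium, and DDIT4 by 0.45, against -0.49.

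Other genes kept their direction but changed in size. TAL1 differed by 3.35 after EBSS, against 2.37 in full medium (difference 0.98, adjusted p = 0.00403). The value was 1.78 for HCLS1, 2.11 for THBS1, -2.06 for FOXF1 (adjusted p = 0.0376), -1.0 for GPC6, -0.68 for ERBB2, 0.75 for TFRC, -0.78 for ANK1, 0.33 for VIM, -1.35 for HOXD13 (adjusted p = 1.18e-06), -1.23 for HOXC8 and -0.93 for CGAS (adjusted p = 0.0459). Some of these rest on few reads: in RB1CC1KO-labelled libraries HCLS1 had 19 in full medium and 64 after EBSS. THBS1 had 36 and 64 there, and FOXF1 48 and 7. ATG7 differed by 0.72 after EBSS, against 2.01 in full medium (-1.29, adjusted p = 7.63e-06). The sign of the fitted value turned for GABARAP (1.37), EFNA3 (-0.89) and HOXA13 (-0.46), where HOXA13 had -0.20 after EBSS, against 0.26 in full medium. For EFNA3 and GABARAP the EBSS value itself was not called, with adjusted p of 0.762 and 0.168.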

How the results depend on the processing

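The count of 3249 genes called in full medium was 2815 with DESeq2, 3046 with upper-quartile scaling and between 2460 and 2748 when 1 library of the compared groups was left out. After EBSS it was 4445, between 3702 and 4144 with 1 library left out. The difference between media, with 498 calls, was the least stable count: leaving out 1 library gave 295 to 468, with 295 without ATG7KO EBSS replicate 2 and 309 without RB1CC1KO EBSS replicate 1, and 46.7% of the calls were upward with only the compared groups and 41.8% with DESeq2, against 29.9%. The counts of genes silent in the RB1CC1KO-labelled line and in ATG7KO, 18 and 11, were 29 and 21 with on taken at 0.5 CPM, and 6 and 5 with silent taken as 0 reads. Leaving out 1 library gave 18 to 27 and 11 to 14. Replicate numbers did not pair the lines: same-numbered libraries had correlations of deviations of -0.04, 0.10 and -0.01, and not every library correlated best with its own number. With the replicate number as a block the counts were 3470, 4705 and 596. Of 2104 full-medium values of the 162 named genes under alternatives, 2050 kept their call and direction, 54 lost the call and 0 changed direction. These values do not cover the EBSS contrast or the difference between media. Of 832 full-medium counts of list members, 69 moved by over 1.5 times. Calls lost without 1 library, or under another setting, were mostly of changes near 0.2 on the log2 scale, such as GINS2 (0.20) and BUB1 (0.19); the cause was not tested.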
